A study of Homo sapiens with 14 samples.

Results

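The splicing of 10 genes that carry TGF-β, activin and BMP signals was examined in HEK293T cells with and without the SF3B1 K700E mutation. The genes were the type I receptors TGFBR1, ACVR1, ACVR1B and BMPR1A, the type II receptors TGFBR2 and BMPR2, and the signal mediators SMAD2, SMAD3, SMAD4 and SMAD5. All splice events of these genes with at least 10 mean junction reads were taken from a table of 114349 events in 12516 genes, where the mean was that of the WT and MT group means. This gave 61 events in 9 genes, out of 65 listed for the 10 genes. They were classed as 49 cassette exons, 11 pairs of mutually exclusive exons and 1 alternative 3′ splice site. The class does not show that the exons of a pair exclude each other, and several pairs below held exons that were nearly always present. TGFBR2 had no event at this depth.

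RNA-Seq covered 3 SF3B1 WT libraries (labelled K700K) and 3 MT libraries (labelled K700E) of HEK293T, a transformed human embryonic kidney line. The study describes the lines as isogenic, with the mutation in the cells' own SF3B1 gene. Whether each genotype was a single clone, and whether libraries came from separate cultures, is not given in the sources used here, so p-values measure only the spread between these libraries. DRIP-seq covered Nalm-6, a leukemic B cell line, with 2 libraries each of WT and MT, from untreated DNA and from DNA treated with RNH1, the enzyme that digests the RNA of DNA:RNA hybrids. The 3 MT columns of inclusion levels carry no replicate number that the labels tie to a library, and the table lists 6 MT values per event. They are called MT 1, MT 2 and MT 3 in column order.

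In this pathway a ligand brings type II and type I receptors together, and the type II kinase activates the type I kinase. The type I receptor then phosphorylates a receptor-regulated SMAD, which joins SMAD4 and enters the nucleus. TGFBR1 and ACVR1B mainly act on SMAD2 and SMAD3, while ACVR1 and BMPR1A mainly act on the BMP mediators, among them SMAD5. SF3B1 is part of the U2 snRNP, which recognises the branch point ahead of a 3′ splice site, and its K700E form is known for using cryptic 3′ splice sites a short way upstream of the usual ones.

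The alternative 3′ splice site event of the members is in TGFBR1 exon 3, on the plus strand of chromosome 9 in GRCh38. Its upstream site is an annotated site that WT libraries also used, and not a cryptic site by the annotation. The upstream site starts the exon at base 99132497 and the downstream site starts it at 99132509, with the shared end at 99132739. The reference sequence around both sites is shown because the event turns on the 12 bases between them, given in capitals. It covers chr9:99132427-99132529, plus strand.
TGFBR1 3′ splice region: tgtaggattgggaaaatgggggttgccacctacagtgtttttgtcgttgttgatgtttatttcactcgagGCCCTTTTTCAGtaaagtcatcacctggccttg

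Both sites follow an AG. Use of the upstream site makes an exon of 243 bases in place of 231, so the 12 added bases kept the reading frame. The long exon was annotated as coding in 5 of 13 TGFBR1 transcripts, and the short exon, which is exon 3 of the canonical transcript, was present in 5 of 13. The spliced forms across the junction of exons 2 and 3 differ as follows, with the bases found only in the long form in capitals.
TGFBR1 short form: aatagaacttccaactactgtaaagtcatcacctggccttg
TGFBR1 long form: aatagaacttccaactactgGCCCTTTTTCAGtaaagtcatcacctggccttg

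The study also measured TGFBR1 splicing by qPCR, among transcripts it picked for their large splicing changes with the mutation. It reports that RNH1 overexpression altered these transcripts only subtly. Those qPCR values are not used here. Forward primers from the study for each form are printed below, and the capitals mark the bases past the end of exon 2. Matched to the spliced sequences, the WT primer hit only the short form and the Mut primer only the long form, each with 11 bases in exon 2.
WT Isoform Fw: tccaactactgTAAAGTCATCACC
Mut Isoform Fw: tccaactactgGCCCTTTTTCAG

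Of 5351 alternative 3′ splice site events tested in the whole table, 5272 had an AG at both sites, and in 978 of these the sites lay 10 to 30 bases apart, as in TGFBR1. Pyrimidines made up 75% of the 12 bases between the TGFBR1 sites, beside a median of 65% in those 978 events. Adenines made up 10% of the 30 bases before the upstream AG, beside a median of 20%, and 88.9% of the 978 events held at least the adenine share of TGFBR1. The TGFBR1 site was thus on the low side in adenines among closely spaced pairs. Among acceptors of the members' cassette and mutually exclusive exons, 18 of 40 (45%) had another AG 10 to 30 bases upstream, compared with 45.3% of 46548 acceptors of all tested cassette and mutually exclusive exons.

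**Figure D1:**
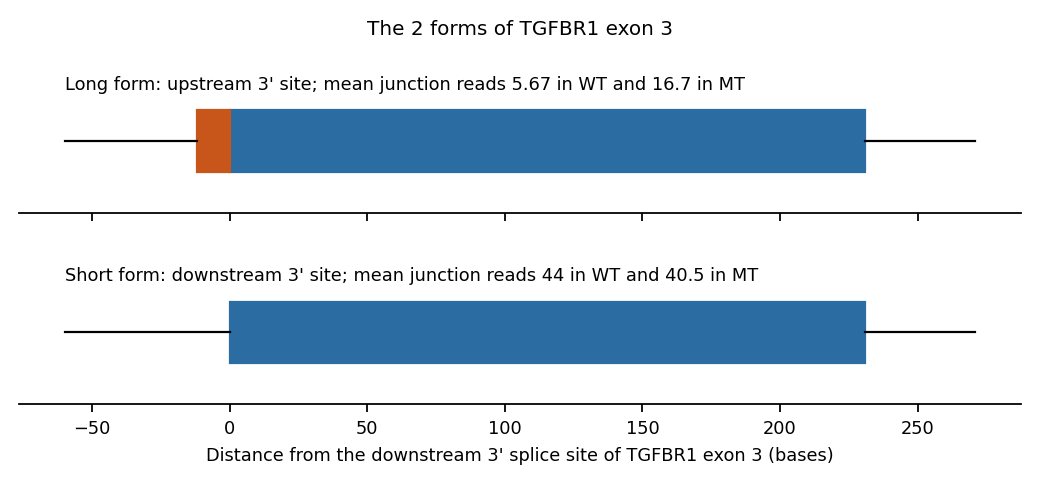
The 2 forms of TGFBR1 exon 3, drawn to scale, with the distance in bases from the downstream 3′ splice site on the horizontal axis. The orange block is the stretch of 12 bases added by the upstream site, and the authors' mean junction reads of the long form are 5.67 in WT and 16.7 in MT, over 3 listed WT and 6 listed MT values.

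The long form of TGFBR1 exon 3 made up a minor share in every library, with higher levels in 2 of the 3 MT libraries than in any WT library. The inclusion level, the share of transcripts with the longer form on a scale of 0 to 1, was 0.068, 0.17 and 0.085 in WT 1, WT 2 and WT 3. It was 0.134, 0.333 and 0.351 in MT 1, MT 2 and MT 3. MT 1 lay below WT 2, so the groups overlapped. Means were 0.108 ± 0.0546 in WT and 0.273 ± 0.12 in MT (SD, n = 3 each), a difference of 0.165 with a 95% interval of -0.0037 to 0.334 in limma on untransformed levels. This difference did not pass the test over all events (limma, unadjusted p = 0.0207, Benjamini-Hochberg adjusted p = 0.856). The two-sided exact permutation test over the 6 libraries gave p = 0.2, where 0.1 is the smallest p it can give. Leaving out MT 1 moved the difference to 0.234 and leaving out MT 3 moved it to 0.126.

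Junction reads behind this event were few. WT had on average 5.67 reads of the long form and 44 of the short form. MT had 16.7 and 40.5, averaged by the authors over all 6 listed MT values. Their mean inclusion level over those 6 values was 0.268, close to the 0.273 over the 3 MT columns.

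A further TGFBR1 event counts the same long exon against exon 4, between exons 2 and 5. Its level was 0.03, 0.074 and 0.04 in WT, and at 0.085, 0.207 and 0.212 in MT. Here all MT values were above all WT values, with a difference of 0.12 (95% interval 0.0228 to 0.217 on untransformed levels). The adjusted p was again 0.856 (limma, unadjusted p = 0.0109). A mean of only 2.67 reads in WT held the long exon in this event, and 14.8 in MT over all listed values. Its reads at the upstream site are those of the event above, so it is no separate measurement of the site. The matching event for the short exon 3 against exon 4 was 0.43, 0.412 and 0.5 in WT, compared with 0.46, 0.352 and 0.328 in MT, a difference of -0.067 with overlapping groups. Exon 3 itself was seldom skipped: as a cassette exon, the long form was included at 0.872 or more and the short form at 0.89 or more in every library. These levels set exon 3 against its skipping and not the long form against the short form. Exon 4 was included at 1 in all 6 libraries, and exon 7 at 0.952 or more.

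**Figure D2:**
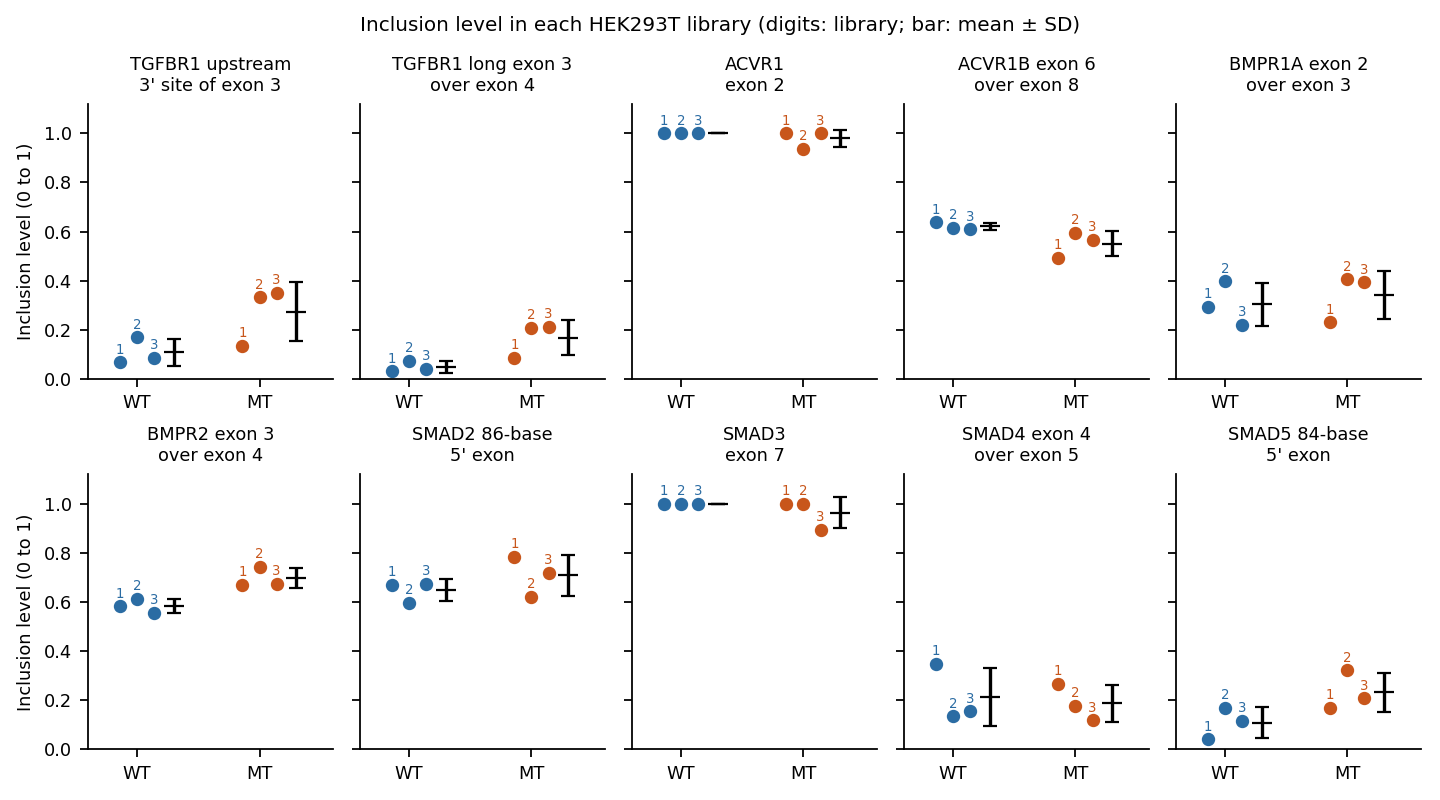
Inclusion level (0 to 1) of the member events given in full, with 1 point per HEK293T library, WT in blue and MT in orange, and the mean with SD in black. MT lies wholly above WT for TGFBR1 long exon 3 over exon 4 and for BMPR2, and wholly below WT for ACVR1B, while in the TGFBR1 upstream 3′ site MT 1 (0.134) lies below WT 2 (0.17). The share of all events that lie wholly apart at any size of difference was not computed.

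Across all 10 genes no member event was called at an adjusted p under 0.05 with a difference above 0.1 (limma, 53 events tested, 0 called), and the share called over all 83581 tested events was 0.0311%, or 26 events. At an unadjusted p under 0.05 there were 3 member events (5.66%), compared with 4.47% of all events. These were the TGFBR1 upstream site, the TGFBR1 long exon 3 against exon 4, and the cassette exon 4 of BMPR1A. The third event that holds the long TGFBR1 exon, its inclusion as a cassette exon, differed by -0.018 (limma, unadjusted p = 0.944). The other 8 of the 61 events were at an inclusion level of 1 in every library and could not be tested. Adjusted p-values of member events ran from 0.856 to 0.994.

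Differences above 0.1 in size were found in 4 of the 53 tested member events (7.55%), all with the higher level in MT, beside 5.82% of all events. In 2 of them the lowest MT library exceeded the highest WT library, which was so for 0.751% of all events. In no member event did all MT libraries lie below all WT libraries by more than 0.1, as in 0.979% of all events. Member events were split evenly by direction, with 26 higher and 27 lower in MT. The median absolute difference was 0.0193 in member events and 0.0137 in all events, and the median depth was 71.4 and 82.4 mean reads.

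**Figure D3:**
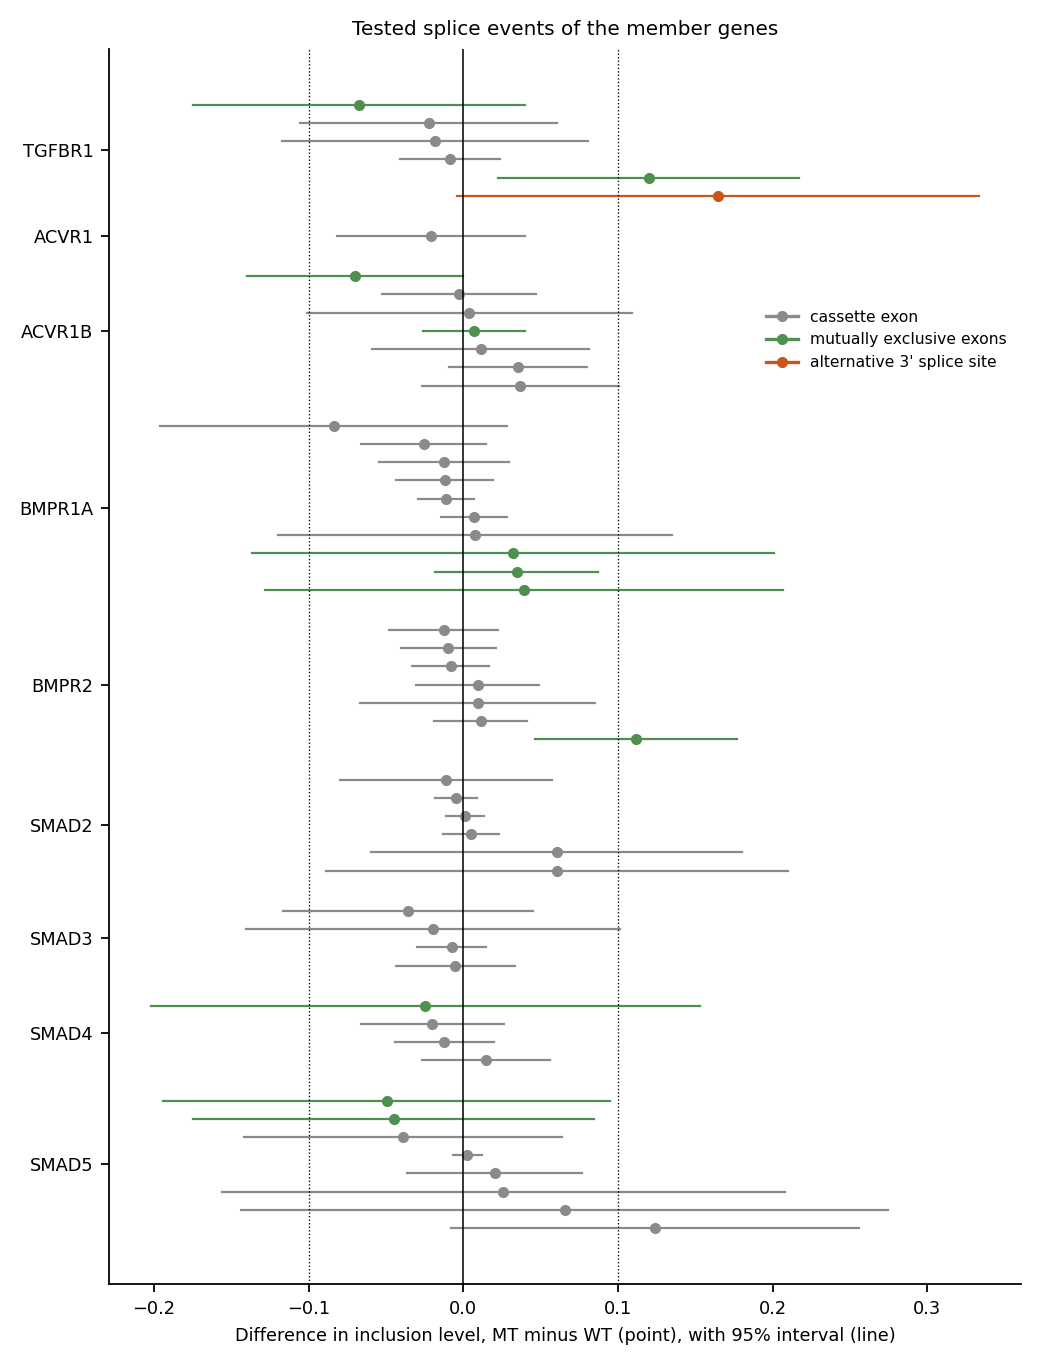
Difference in inclusion level (MT minus WT) of the 53 tested member events, grouped by gene, with 95% intervals from limma on untransformed levels and dotted lines at a difference of 0.1 in either direction. Points past the dotted line are 2 events of TGFBR1 and 1 each of BMPR2 and SMAD5, and none lies past it on the lower side.

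Among the other type I receptors, ACVR1B, which carries activin signals, had the only event with all MT libraries below all WT libraries. The share of all events that lie so at any size of difference was not computed, so this event is not set apart from others. Exon 6 against exon 8 was at 0.637, 0.616 and 0.61 in WT, compared with 0.493, 0.594 and 0.566 in MT. The difference of -0.07 (95% interval -0.14 to -1.98e-05 on untransformed levels) was -0.041 without MT 1. The test over all events, on arcsine square root levels, gave an unadjusted p of 0.256 and an adjusted p of 0.856 (limma). As a cassette exon between exons 5 and 8, exon 6 was at 1 in every library. The other 6 tested events of ACVR1B differed by between -0.0027 and 0.037. The 3′ end of the intron before exon 6 is printed for comparison with the TGFBR1 region, with its AG in capitals. It covers chr12:51985142-51985191, plus strand.
ACVR1B intron end: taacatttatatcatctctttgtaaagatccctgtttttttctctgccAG

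BMPR1A, a BMP receptor, had the most events, 13, of which 10 were tested, and their differences ran from -0.084 to 0.039. The event given in full, exon 2 against exon 3, was at 0.293, 0.397 and 0.221 in WT, and at 0.23, 0.405 and 0.394 in MT. The groups overlapped over nearly their whole range, with a difference of 0.039 (limma, adjusted p = 0.856). Its cassette exon 4 was at 1 in the 3 WT libraries and at 1, 0.94 and 0.983 in MT, a difference of -0.026 with an unadjusted p of 0.041 (limma, adjusted p = 0.856). ACVR1, the receptor for several BMP ligands and activins, had a single event with enough reads. Its noncoding exon 2 was at 1 in every library but MT 2, which was at 0.938.

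Of the type II receptors, BMPR2 had 7 tested events. Exon 3 against exon 4, between exons 2 and 5, was at 0.583, 0.614 and 0.556 in WT, compared with 0.67, 0.743 and 0.675 in MT. All MT libraries were above all WT libraries, by 0.112 on average (95% interval 0.0463 to 0.177 on untransformed levels). The test over all events gave an adjusted p of 0.856 (limma, unadjusted p = 0.078). Without MT 2 the difference was 0.088. Over all 6 listed MT values the authors' mean was 0.652, compared with 0.696 over the 3 MT columns and 0.584 in WT. Taken singly, exon 3 was included at 0.966 or more and exon 4 at 0.962 or more in every library, so this level weighs the junction reads of exons that were nearly always both present. The other 6 events of BMPR2 differed by between -0.013 and 0.011. The intron ends before exon 3 (chr2:202467469-202467518) and exon 4 (chr2:202513669-202513718), plus strand, are shown with the AG in capitals.
BMPR2 before exon 3: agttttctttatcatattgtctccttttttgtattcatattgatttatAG
BMPR2 before exon 4: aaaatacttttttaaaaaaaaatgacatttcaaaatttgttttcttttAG

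TGFBR2, the type II receptor that binds TGF-β ligands, had 1 event, an exon of 75 bases between exons 1 and 2, which fell just short of the minimum with 9.75 mean reads. Its level was 0.113, 0.053 and 0.156 in WT, compared with 0.357, 0.156 and 0.357 in MT, with MT 2 equal to WT 3. The authors' means over all listed values were 0.107 in WT and 0.198 in MT. At that depth the MT level rested on a mean of 3 reads with the exon. Tested without a minimum of reads, its difference of 0.183 had an adjusted p of 0.857 (limma). Just inside the minimum, the BMPR1A exon with 12.75 mean reads was at 1 in WT and at 0.882, 1 and 0.867 in MT.

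The SMAD genes held 1 difference above 0.1, in SMAD5, which carries BMP signals. An exon of 84 bases in its 5′ noncoding part, annotated in 2 of 12 transcripts, was at 0.041, 0.169 and 0.116 in WT, and at 0.169, 0.321 and 0.208 in MT. MT 1 and WT 2 were level. The difference was 0.124 (95% interval -0.0077 to 0.256 on untransformed levels). The test over all events gave an adjusted p of 0.856 (limma, unadjusted p = 0.0722). The difference was 0.08 without MT 2 and 0.09 without WT 1. The same exon measured from exon 2 to exon 3, rather than from exon 1, was at 0.036, 0.275 and 0.047 in WT, compared with 0.184, 0.16 and 0.092 in MT, a difference of 0.026. The exon thus had a higher mean in MT by both measures, with overlap in both. The end of the intron before it lies at chr5:136152625-136152674, plus strand.
SMAD5 intron end: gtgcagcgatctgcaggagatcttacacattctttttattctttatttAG

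SMAD2, which carries TGF-β and activin signals, had 6 tested events with differences between -0.011 and 0.061. Its noncoding exon of 86 bases was at 0.671, 0.597 and 0.675 in WT, compared with 0.784, 0.621 and 0.719 in MT. The groups overlapped, with a difference of 0.06, which was 0.022 without MT 1, 0.035 without WT 2 and 0.104 without MT 2. The authors' mean over all 6 listed MT values was 0.75, compared with 0.648 in WT. SMAD2 exon 3, which is left out of a known shorter SMAD2 protein, was included at 0.988 or more in every library. SMAD3 had 4 tested events, all lower in MT, by 0.036 at most. Its exon 7 was at 1 in every library but MT 3, which was at 0.893.

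SMAD4, the partner shared by the TGF-β and BMP branches, had 4 tested events with differences between -0.025 and 0.015. Exon 4 against exon 5 was at 0.347, 0.134 and 0.154 in WT, and at 0.267, 0.176 and 0.118 in MT, with WT 1 the highest of the 6 libraries. The sign of this difference, -0.025, turned to 0.043 without WT 1. The authors' mean over all 6 listed MT values was 0.2495, above the 0.212 of WT. Taken singly, exon 4 was included at 0.963 or more and exon 5 at 1 in every library. For the events given in full, the adjusted p was 0.856 in SMAD2 and SMAD3 and 0.928 in SMAD4 (limma).

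Depth sets how these differences read. Among the 20191 tested events with 50 to 100 mean reads, 95% differed by less than 0.0867, and the TGFBR1 upstream site, the TGFBR1 long exon 3 and the BMPR2 event lay above that. Among the 18829 events with 20 to 50 mean reads the same limit was 0.133, and the SMAD5 exon of 84 bases lay below it. In all, 5 of the 53 tested member events lay above the limit of their depth, which 5% of all events do by construction. SMAD5 exon 2, as a cassette exon between exons 1 and 3, was among them, at 0.0657 with a limit of 0.063 and overlapping groups. The TGFBR1 short exon 3 against exon 4 was also among them, at -0.067 with the same limit. It shares junctions of exon 3 with the other TGFBR1 events named here, so the count is not one of separate measurements.

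**Figure D4:**
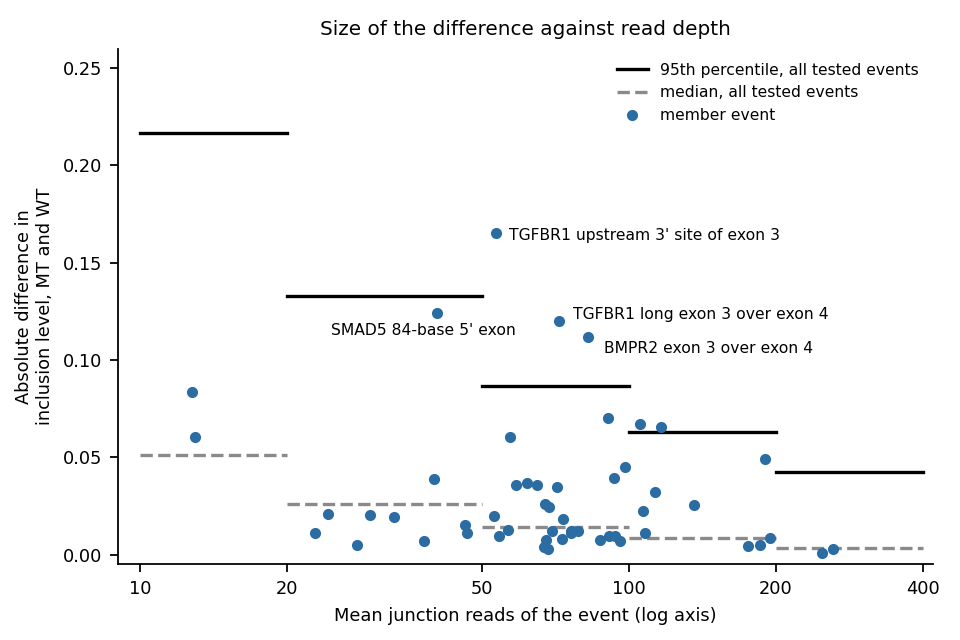
Absolute difference in inclusion level against mean junction reads (log axis) for the 53 tested member events (blue), with the median (dashed) and the 95th percentile (solid) of all tested events within 5 ranges of reads. The TGFBR1 upstream site (0.165) lies furthest above the solid line of its range (0.0867).

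The alternative 3′ splice site events of other genes whose levels were most like TGFBR1 over the 6 libraries were in HSPBP1, CRTC2 and SLC25A39, by the root mean square difference in level among 5350 such events. CRTC2, with sites 15 bases apart, was at 0.14, 0.108 and 0.085 in WT, compared with 0.148, 0.352 and 0.402 in MT. HSPBP1, with sites 3 bases apart, was at 0.082, 0.14 and 0.14 in WT, compared with 0.109, 0.329 and 0.296 in MT. In SLC25A39, with sites 24 bases apart, WT was at 0.132, 0.182 and 0.176, and MT at 0.185, 0.329 and 0.264. The root mean square differences were 0.0451, 0.036 and 0.0615 in that order. In each of the 3, as in TGFBR1, MT 1 was the lowest MT library, which the choice by likeness over the libraries favours. Over all 83581 tested events the median level of MT 1, 0.968, lay among those of WT (0.964 to 0.971), while MT 2 and MT 3 were at 0.956 and 0.951. Over the alternative 3′ splice sites alone, the median of MT 1 (0.855) was the MT value nearest to WT (0.864 to 0.87), with 0.846 and 0.847 in MT 2 and MT 3. Over the 26 called events, which were picked on these same libraries, MT 1 instead lay furthest in the MT direction. Its mean distance from the mean of the 6 libraries was 0.206, compared with 0.174 in MT 2 and 0.166 in MT 3. MT 1 was thus not nearest to WT throughout, and the part of such library differences in the TGFBR1 values was not tested.

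Of 56 other genes of the pathway, 43 were in the table and 40 had tested events, 305 in all. None of these events was called (limma, 0 of 305), and 11 had an unadjusted p under 0.05, 1 with the higher and 10 with the lower level in MT. That is 3.61% of them, compared with 4.47% of all events, of which 1278 were higher and 2462 lower in MT. Groups lay apart with a difference above 0.1 in 3 events higher in MT (0.984%) and 2 lower in MT (0.656%), near the 0.751% and 0.979% of all events. The largest was in SMAD7, an inhibitory SMAD, where a pair classed as mutually exclusive exons was at 0.529, 0.555 and 0.505 in WT. It was at 0.297, 0.36 and 0.316 in MT, a difference of -0.205 (95% interval -0.267 to -0.144 on untransformed levels). The test over all events gave an unadjusted p of 0.0435 and an adjusted p of 0.856 (limma). The authors' mean over all 6 listed MT values was 0.387.

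The other 4 lay in genes that hold or present ligand. LTBP4, which binds latent TGF-β in the matrix, had an exon at 0.499, 0.452 and 0.575 in WT, compared with 0.772, 0.585 and 0.629 in MT. A second LTBP4 exon was at 1 in every WT library and at 0.714, 0.935 and 0.907 in MT. LTBP1, a related protein, had a pair classed as mutually exclusive exons at 0.383, 0.296 and 0.143 in WT, compared with 0.441, 0.419 and 0.405 in MT. TGFBR3, a co-receptor that presents ligand, had an alternative 3′ splice site at 0.739, 0.707 and 0.706 in WT, and at 0.843, 0.936 and 0.755 in MT. Over all 6 listed MT values the authors' mean was 0.33 in LTBP1 (0.274 in WT), and 0.585 (0.509 in WT) and 0.907 (1 in WT) in the LTBP4 exons, which leaves these 3 nearer to WT than the MT columns do. It was 0.815 in TGFBR3 (0.717 in WT). None of these 4 passed the test over all events, with adjusted p-values of 0.753 to 0.856 (limma).

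Ubiquitin regulators such as SMURF1 had the most tested events, 100 in 10 genes, with differences between -0.096 and 0.085. Nuclear partners of the SMADs had 63 in 7 genes, between -0.066 and 0.098. Neither group held an event that lay apart by more than 0.1, which few events in the whole table did (0.751% higher and 0.979% lower in MT). Ligand genes had 10 events in 2 genes, and their differences stayed between -0.016 and 0.044.

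In Nalm-6 cells the member genes held more DRIP peaks in MT than in WT libraries, while their share of all peaks overlapped between genotypes. DRIP peaks are taken to mark DNA:RNA hybrids (R-loops). A peak was counted as bona fide where the RNH1-treated partner, matched by genotype and number, had none that overlapped it. The member genes held 29 of 101372 and 33 of 86247 bona fide peaks in WT 1 and WT 2, and 57 of 124689 and 58 of 151753 in MT 1 and MT 2. As shares these came to 0.0286% and 0.0383% in WT, compared with 0.0457% and 0.0382% in MT, where MT 2 lay just below WT 2. The log2 ratio of the mean shares, MT over WT, was 0.33 (two-sided exact permutation p = 0.667, where 0.333 is the smallest p that 2 against 2 libraries can give). Among peaks with a fold enrichment of at least 4 it was 0.03.

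The genes differed in how their counts moved with the number of peaks. TGFBR2 had 1 and 3 peaks in WT, compared with 7 and 9 in MT, and SMAD2 had 3 and 2 in WT, compared with 10 and 8 in MT. ACVR1 (5 and 5 in WT, 8 and 11 in MT), BMPR1A (5 and 7 in WT, 12 and 11 in MT) and SMAD3 (2 and 1 in WT, 4 and 5 in MT) also had more in both MT libraries. BMPR2 went the other way in part, with 4 and 7 in WT, compared with 5 and 4 in MT. TGFBR1 had 3 and 2 in WT, compared with 3 in each MT library. In every member gene the RNH1-treated libraries also held more peaks in both MT than in both WT libraries. In SMAD2 these were 1 and 3 in WT, compared with 11 and 14 in MT. In TGFBR1 they were 0 in each WT and 3 in each MT library. The higher MT counts were thus not confined to peaks that RNH1 removed. None of these counts was tested by gene. Both MT libraries also held more bona fide peaks in all than either WT library. The share of all genes with more peaks in both MT libraries was not computed, so these genes are not set apart from others. No peak lay on the alternative 3′ splice site of TGFBR1. The nearest untreated peak was 3.74 kb away in both MT libraries, with fold enrichments of 10.5 and 11.8, and 4.87 and 4.88 kb away in WT, with 3.9 and 2.87. In MT 1 this nearest peak overlapped a peak of the RNH1-treated library, and in MT 2 it did not. These are peaks of another cell line than the one whose splicing was measured, so the values stand side by side with no comparison of the 2 readouts.

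**Figure D5:**
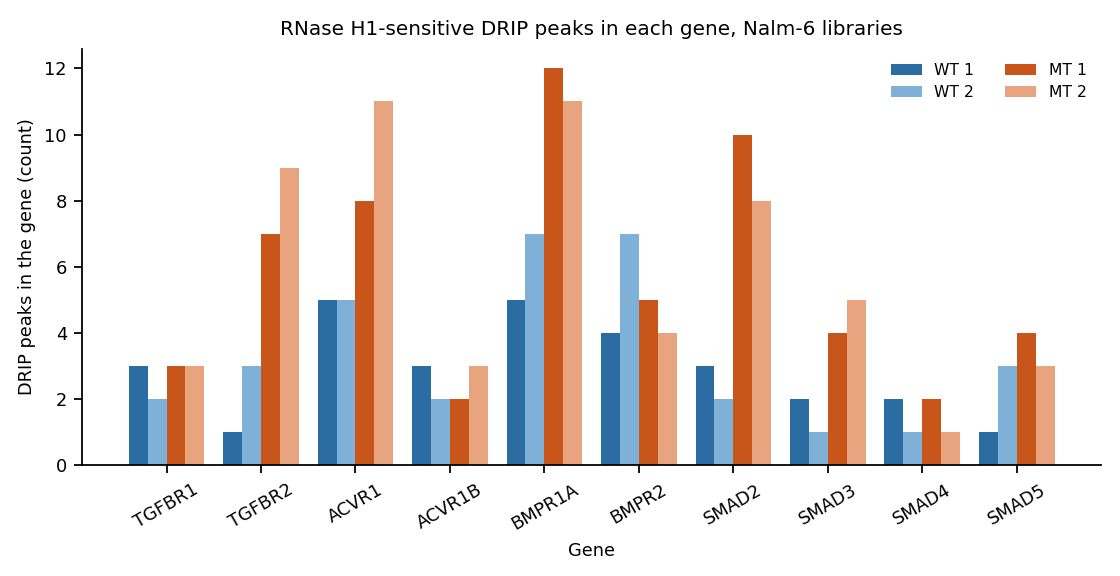
Bona fide DRIP peaks (count, vertical axis from 0) within each member gene in the 2 WT and 2 MT Nalm-6 libraries. TGFBR2, ACVR1, BMPR1A, SMAD2 and SMAD3 have more peaks in both MT than in both WT libraries, while TGFBR1 has 2 or 3 in all 4 libraries. The MT libraries hold more bona fide peaks in all (124689 and 151753, compared with 101372 and 86247 in WT). The share of all genes that separate this way was not computed.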

How the data were processed

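The authors aligned reads to GRCh38 with STAR (RNA-Seq) or BWA (DRIP-seq), as the labels and Methods state, and analysed splicing with the rMATS model. The deposited inclusion level of each event is a fraction with 3 decimals, made from junction reads per length of each form. The authors' DRIP peak lists give the fold enrichment of each peak, a ratio over local background, called per library. Depth per library is not given in the fractions. The table lists 6 MT values per event: the 3 MT columns equal the 1st, 2nd and 6th listed, and it is not settled that these are the study's 3 MT samples. The 6 columns of listed values, the authors' p-values and their comparison columns were not used, apart from matching those positions.

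rMATS could not be run, so arcsine square root levels were tested in limma 3.58.1 (R 4.3.3) with a variance trend on log2 mean reads, Benjamini-Hochberg over 83581 events with at least 10 mean reads and levels that varied, and calls at an adjusted p under 0.05 and a difference above 0.1. This test takes inclusion levels and not the reads of each library, so it may have less power than the rMATS model. The script was tested on simulated data. Intervals come from untransformed levels, chosen after seeing the data. They are not the test used for calls and can be narrower than it implies. The ACVR1B interval lies wholly below no change and the BMPR2 interval wholly above it. The test on arcsine square root levels gave these events unadjusted p-values of 0.256 and 0.078 (limma). Sequences come from the hg38 reference with GENCODE annotation, and primers from the study's list. Members, gene lists and tests were chosen with earlier results of these data known. Events given in full were those called or apart by more than 0.1, or else the largest difference at 20 or more mean reads in each gene, plus the TGFBR1 site. Neither genotype nor cell type markers could be checked, because the files hold no base calls and no expression levels.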

Additional observations from a re-analysis of the deposited data

How the results depend on the processing

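No member event and no event of the other pathway genes was called under any setting run. As the test called at most 26 of all events, and 0 under some settings, this does not show that their splicing was unchanged. Calls over all events fell from 26 to 0 with the logit of the level, to 0 without the variance trend and to 0 on untransformed levels (added after seeing the data), and ranged from 3 to 13 when 1 library was left out (3 without MT 1, 4 without MT 2, 13 without MT 3, 10 without WT 1, 12 without WT 2 and 6 without WT 3). A minimum of 20 mean reads gave 26 and no minimum gave 22. The count of member events apart by more than 0.1, 2 in all libraries, ranged from 1 (without MT 3) to 5 (without MT 1, and without WT 2). The TGFBR1 difference of 0.165 kept its direction, between 0.126 and 0.234, with adjusted p from 0.732 to 0.894 (limma). The SMAD4 event reversed to 0.043 without WT 1 and to 0.0098 without MT 3, and the BMPR1A event to -0.002 without WT 3. Over all such omissions the SMAD4 value ran from -0.065 to 0.043 and the BMPR1A value from -0.002 to 0.096. The DRIP log2 ratio stayed positive: 0.42 for all untreated peaks, 0.03 at a fold enrichment of 4 or more, 0.34 with 3 kb added to each gene, and 0.13 to 0.55 when 1 library was left out. No paired analysis was possible because the MT columns carry no replicate number that the labels tie to a library. Depth limits the fewest-read events: the long TGFBR1 form rests on a mean of 5.67 reads in WT, and on 2.67 in its event against exon 4.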
